A study of Mus musculus with 21 samples.

Results

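Lipid-associated macrophages were followed in whole mouse livers by 9 of their marker genes: Trem2, Tyrobp, Gpnmb, Lgals3, Cd9, Cd63, Fabp5, Itgax and Atp6v0d2. They were taken by gene symbol from the count files, which hold 55418 symbols, and all 9 were among the 15677 genes that passed the filter on low counts. The livers came from wild-type mice (WT) and from mice whose hepatocytes lacked Mboat7 (KO), and each genotype was kept on chow or on HFMCD, a diet rich in fat that is low in methionine and has too little choline. There were 6 WT and 7 KO livers on chow, from mice 10 weeks old, and 4 WT and 4 KO livers on HFMCD, which was fed for 6 weeks from an age of 6 to 8 weeks. The driver of the deletion, the Mboat7 allele, the strain and the sex were not given in the sources used here, and the WT and KO mice of a diet share every treatment that the labels name. Age and the number range of the animals went with the diet, so these cannot be told apart from it. Each library is labelled with an animal number of its own, and the p-values measure the spread between these livers.

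Lipid-associated macrophages are a macrophage state described in fat tissue, in atherosclerotic plaques and in fatty liver, where they gather around lipid-laden or dying cells. The surface receptor TREM2 binds lipids, lipoproteins and cell debris, and signals through the adaptor TYROBP, which recruits the kinase SYK. The state is recognised by genes of the lysosome, of lipid handling and of the cell surface. Several of these genes are also made by other liver cells: CD9, CD63 and galectin-3 occur in epithelial and mesenchymal cells, and ITGAX (CD11c) occurs in dendritic cells.

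The start-site regions of the members are shown first because 3 of them hold the same short motif, TGANTCA. This pattern is wider than the AP-1 site, which reads TGACTCA, as in Gpnmb, or TGAGTCA, as in Itgax. Trem2 holds TGAATCA, which departs from that site in its middle base. RefSeq promoter windows on GRCm38.p6, from 250 bases before to 50 bases after a start site, were found for 6 of the 9 members (Gpnmb, Trem2, Lgals3, Cd9, Cd63 and Itgax). Tyrobp, Fabp5 and Atp6v0d2 had no entry. In the lines that follow, 140 bases of the plus strand are given from 120 bases before the start site, with the motif in capitals.
Trem2, chr17:48346281-48346420: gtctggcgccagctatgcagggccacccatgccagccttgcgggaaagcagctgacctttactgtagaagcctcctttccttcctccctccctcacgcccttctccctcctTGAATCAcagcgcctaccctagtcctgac
Gpnmb, chr6:49036398-49036537: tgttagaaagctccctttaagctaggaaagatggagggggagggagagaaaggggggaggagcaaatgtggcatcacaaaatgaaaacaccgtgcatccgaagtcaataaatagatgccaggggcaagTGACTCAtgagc
Itgax, chr7:128129430-128129569: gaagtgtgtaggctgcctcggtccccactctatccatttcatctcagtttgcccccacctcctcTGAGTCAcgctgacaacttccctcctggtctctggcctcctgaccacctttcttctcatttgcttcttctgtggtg
With the first base transcribed from the RefSeq start site counted as 0, the match lay at positions -9 to -3 in Trem2, at 8 to 14 in Gpnmb and at -56 to -50 in Itgax. The RefSeq start site of Gpnmb, chr6:49036518, lies 28 bases before the start of the gene in the GENCODE annotation used for gene positions, so its match lies before the GENCODE start. For Trem2 both starts are the same base, and for Itgax they differ by 3 bases. For Cd9 they differ by 31 bases. The RefSeq start sites of Cd63 and Lgals3 lie 8356 and 6109 bases after the GENCODE gene start, so their windows lie inside the annotated gene. Over the whole 300-base windows, TGANTCA (which reads alike on both strands) occurred in 3 of 6 members and in at least 1 promoter of 8.97% of 27025 gene symbols. The motif of MiT/TFE factors, CACGTG, occurred in 0 of 6 members and in 8.09% of symbols, and TCATGTG, searched on both strands, in 0 of 6 and in 4.31%. The ETS-type motif GAGGAA, searched on both strands, occurred in 2 of 6 members (Cd63 and Trem2) and in 31.3% of symbols. These are letter matches in reference sequence, and no binding was measured.

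Library totals ran from 17502231 to 25822972 counts. Mboat7 itself, in CPM (counts relative to the library total), averaged 36.2 ± 2.72 (SD, n = 6) in the WT livers on chow and 21.3 ± 1.77 (SD, n = 7) in the KO livers. On HFMCD it averaged 36.3 ± 1.47 (SD, n = 4) in WT livers, against 18.9 ± 2.24 (SD, n = 4) in KO livers. On chow, 4 libraries stood apart by Dmbt1, a gene of mucosal epithelia, with 27.6 to 95.6 CPM while no further chow library exceeded 0.596 CPM. These were KO replicates 1 and 7 and WT replicates 3 and 5, and KO replicate 7 also held 331 CPM of the muscle gene Ttn. Member values that turned or moved most without these libraries are also given without them. Among the member genes only Cd9 lies over a gene on the other strand, Gm26728, whose exons share 218 bases with it, and reads of that pair cannot be told apart without a stated strand setting. Named copies of members carried few reads: Cd63-ps 166, Cd9-ps 30 and Fabp5l2 1 over the 21 libraries.

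All 9 members were higher on HFMCD than on chow in both genotypes, and in each case every HFMCD library lay above every chow library of its genotype. The median log2 fold change of the 9 was 3.57 in WT and 4.15 in KO, while the median over all tested genes was -0.05 in WT and -0.02 in KO. HFMCD changed much of the transcriptome: 29% of the tested genes were called higher in WT and 33.7% in KO (edgeR quasi-likelihood test, p adjusted by Benjamini-Hochberg, threshold 0.05), and 33.6% and 36% were called lower. Libraries that did not overlap, with HFMCD higher, were found for 23.1% of genes in WT and 25.7% in KO. The WT and KO comparisons use separate livers. In whole liver, more cells that express a gene and more RNA per cell cannot be told apart.

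Trem2 (chr17:48346401-48354147, plus strand), the receptor, was barely detected on chow. In WT chow livers it ran from 0.147 CPM through a median of 0.449 to 1.27 CPM, which is 3 to 26 reads per library, and in KO chow livers from 0.267 through 0.958 to 1.16 CPM. On HFMCD the 4 WT livers held 38.8, 46.5, 40.3 and 34.9 CPM. The 4 KO livers held 43.9, 58.9, 47.6 and 46.1 CPM, so that the lowest HFMCD library of either genotype was at least 27.5 times the highest chow library of that genotype. The log2 fold change was 6.12 (edgeR, SE 0.31, adjusted p = 2.37e-12) in WT and 6.07 (SE 0.29, adjusted p = 3.52e-13) in KO. By size of the increase Trem2 ranked 20 of 15677 genes in WT and 24 in KO.

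Tyrobp (chr7:30413760-30417585, plus strand), which encodes the adaptor that TREM2 shares with other myeloid receptors, was well above Trem2 on chow already. It ranged from 6.88 CPM through a median of 9.59 to 14.7 CPM in WT chow livers and from 7.22 through 9.31 to 13.6 CPM in KO chow livers. On HFMCD it stood at 87.0, 120.04, 98.6 and 109.1 CPM in WT and at 98.9, 114, 125 and 118 CPM in KO. The increase in log2 fold was 3.37 (edgeR, SE 0.20, adjusted p = 1.74e-11) in WT and 3.51 (SE 0.19, adjusted p = 2.2e-12) in KO. The receptor therefore had the larger fitted fold of the pair, from a much lower chow level.

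The lysosomal and membrane members differed widely in size of change. Gpnmb (chr6:49036546-49070929, plus strand), a transmembrane glycoprotein of lysosomes and melanosomes, ran from 0.342 through 0.578 to 0.727 CPM in WT chow livers and from 0.107 through 0.348 to 1.94 CPM in KO chow livers, at 2 to 46 reads per library. On HFMCD it reached 483, 533, 399 and 422 CPM in WT and 459.7, 778, 454 and 619.5 CPM in KO. It ranked 3 of 15677 genes in WT, with a log2 fold change of 9.74 (edgeR, SE 0.45, adjusted p = 2.77e-12), and 2 in KO, with 9.45 (SE 0.41, adjusted p = 5.63e-13). The KO value was 10.65 without KO chow replicates 1 and 7, the 2 KO chow livers with most Gpnmb, and 10.16 with limma-voom, both above the WT values of 9.73 and 9.80 in the same settings, so the order of the genotypes depended on these settings.

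Atp6v0d2 (chr4:19876841-19922605, minus strand) encodes a V-ATPase d subunit, part of the pump that acidifies lysosomes, in a form known from osteoclasts and macrophages. WT chow livers held 2.36 to 8.79 CPM (median 4.46), and KO chow livers 1.25 to 5.81 CPM (median 2.72). HFMCD livers held 42.02, 51.7, 41.3 and 46.2 CPM in WT and 44.01, 62.02, 54.3 and 76.3 CPM in KO. Its log2 increase was 3.24 (edgeR, SE 0.35, adjusted p = 2.73e-07) in WT and 4.15 (SE 0.34, adjusted p = 4.83e-09) in KO.

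Cd63 (chr10:128900989-128912822, plus strand), a tetraspanin of late endosomes and exosomes, ran from 5.16 through 6.04 to 7.21 CPM in WT chow livers and from 5.01 through 7.67 to 12.5 CPM in KO chow livers. It stood at 66.6, 82.5, 73.1 and 63.7 CPM in WT and at 105.6, 146, 117 and 112 CPM in KO on HFMCD. The log2 fold change with diet was 3.57 (edgeR, SE 0.20, adjusted p = 4.1e-12) in WT and 3.91 (SE 0.18, adjusted p = 2.16e-13) in KO.

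Lgals3 (chr14:47367751-47386160, plus strand), which encodes galectin-3, a lectin that gathers on damaged lysosomes and is secreted by activated macrophages, had the smallest adjusted p of the members. It lay between 4.56 and 9.44 CPM in WT chow livers (median 6.66) and between 5.35 and 7.68 CPM in KO chow livers (median 7.16). HFMCD livers held 163, 199, 175 and 161 CPM in WT and 179.9, 252, 212 and 192 CPM in KO. The log2 fold change was 4.65 (edgeR, SE 0.14, adjusted p = 2.83e-17) in WT and 4.90 (SE 0.135, adjusted p = 2.31e-18) in KO.

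Itgax (chr7:128129547-128150657, plus strand), the integrin alpha chain known as CD11c, was low on chow, where WT livers held 0.442 to 1.95 CPM (median 0.850) and KO livers 0.535 to 2.23 CPM (median 0.993). On HFMCD it stood at 34.1, 38.6, 27.4 and 33.7 CPM in WT and at 33.4, 45.7, 35.8 and 49.5 CPM in KO. The log2 fold change was 5.05 (edgeR, SE 0.31, adjusted p = 3.99e-11) in WT and 4.99 (SE 0.28, adjusted p = 6.59e-12) in KO.

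Fabp5 (chr3:10012548-10016607, plus strand), a cytosolic fatty acid binding protein, varied most in WT chow livers, from 1.90 through a median of 4.90 to 11.2 CPM, and ran from 2.29 through 3.16 to 4.76 CPM in KO chow livers. On HFMCD it reached 33.5, 36.9, 30.5 and 26.9 CPM in WT and 33.0, 50.8, 47.9 and 46.5 CPM in KO. The log2 fold change was 2.53 (edgeR, SE 0.30, adjusted p = 5.68e-07) in WT and 3.71 (SE 0.30, adjusted p = 1.62e-09) in KO.

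Cd9 (chr6:125460266-125494791, minus strand), a tetraspanin of the plasma membrane, had the smallest diet change of the 9 in both genotypes. WT chow livers already held 27.8 to 53.8 CPM (median 35.9), and KO chow livers 34.7 to 47.9 CPM (median 39.7). HFMCD livers held 63.4, 77.4, 72.7 and 61.4 CPM in WT and 93.9, 109.5, 93.6 and 97.1 CPM in KO. The log2 fold change was 0.90 (edgeR, SE 0.14, adjusted p = 8.67e-06) in WT, which ranked 2785 of 15677, and 1.25 (SE 0.13, adjusted p = 2.51e-08) in KO. In WT the lowest HFMCD library was only 1.14 times the highest chow library.

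**Figure D1:**
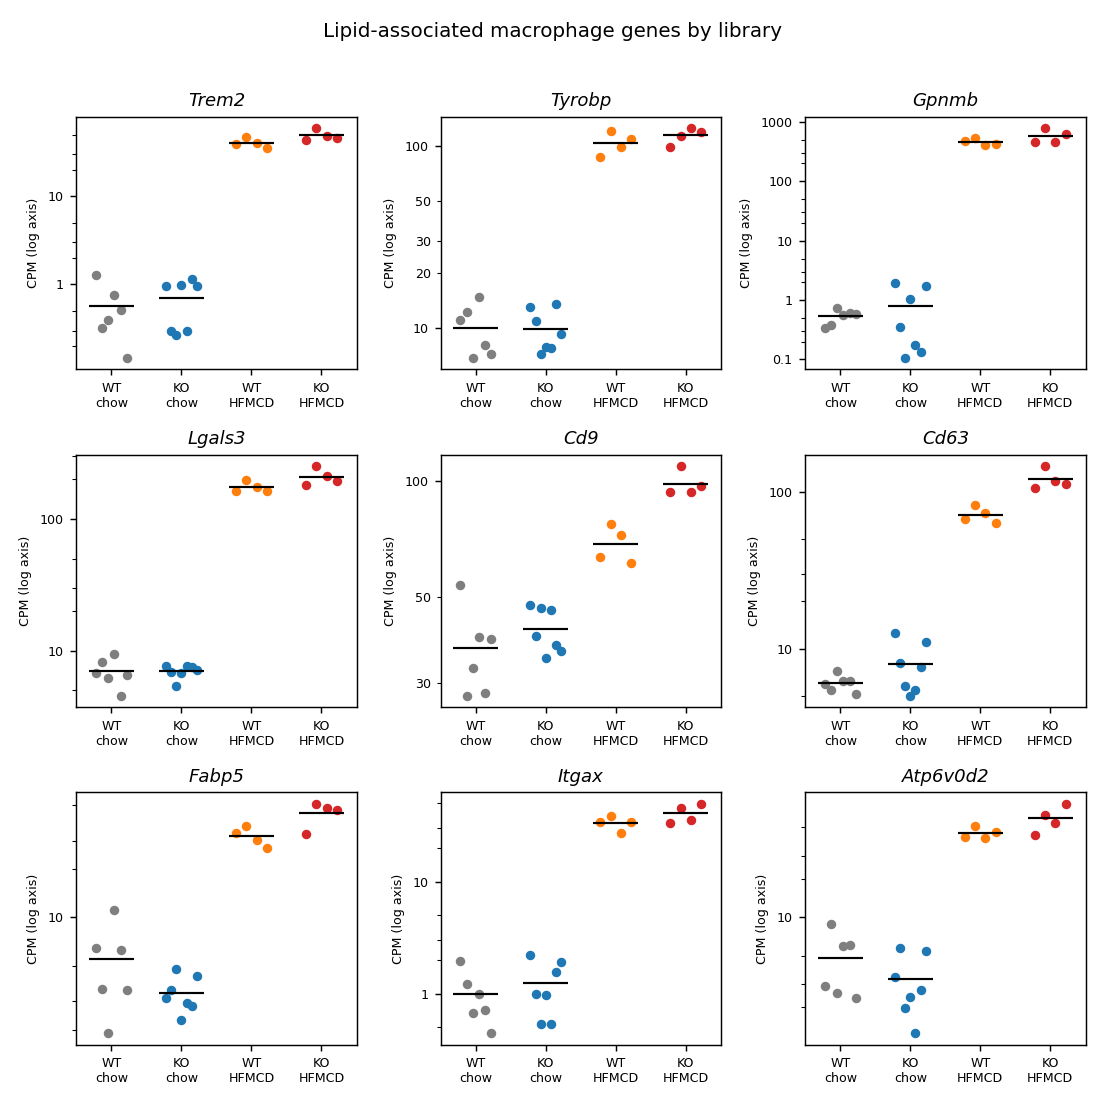
Level of each member in each library, as CPM on a log axis whose range differs between panels; points are livers in the order of their replicate numbers and black lines are group means (6 WT chow, 7 KO chow, 4 WT HFMCD and 4 KO HFMCD livers). Every HFMCD point lies above every chow point of its genotype in all 9 panels, by the widest gap for Gpnmb and the narrowest for Cd9.

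Compared per length, as CPM per kb of exon, the order of the members was not the same on the 2 diets. The length is that of the merged exons of all annotated transcripts of a gene: 667 bases for Tyrobp, 3567 for Fabp5 and 4946 for Trem2. The transcripts in use may be shorter, so the places of different members depend on this choice of length. In WT chow livers Cd9 was first at 18.03 CPM per kb ± 4.75 (SD, n = 6) and Tyrobp second at 15.03 ± 4.74, and their ranges overlapped. Lgals3 followed at 3.74 CPM per kb, then Atp6v0d2, Cd63 and Fabp5 between 1.54 and 1.77, whose ranges overlapped, and Itgax, Trem2 and Gpnmb came last at 0.208, 0.114 and 0.0820 CPM per kb. Each of these last overlapped its neighbour, and Trem2 lay above Gpnmb in 4 of 6 livers. In WT HFMCD livers Tyrobp was first at 155 CPM per kb ± 21.2 (SD, n = 4), followed by Lgals3 at 93.98 ± 9.28 and by Gpnmb at 70.5 ± 9.30, each without overlap with the next. By mean, Gpnmb thus held place 9 of 9 on chow and place 3 on HFMCD, while Cd9 went from place 1 to place 4, at 33.6 CPM per kb. Fabp5, Trem2 and Itgax were the lowest on HFMCD, at 8.95, 8.11 and 6.97 CPM per kb, and each overlapped its neighbour in that order. KO HFMCD livers gave the same order of the 9, with Tyrobp at 171 CPM per kb ± 16.4 (SD, n = 4) and Itgax at 8.56 ± 1.61. There Lgals3 and Gpnmb overlapped, as did Fabp5, Trem2 and Itgax. In KO chow livers the order differed from WT chow only in that Cd63, at 2.15 CPM per kb, stood above Atp6v0d2.

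Genes that macrophages in general express moved with the members. All 10 genes of a pan-macrophage list (Adgre1, Cd68, Csf1r, Mpeg1, C1qa, C1qb, C1qc, Fcgr1, Aif1 and Lyz2) were called higher on HFMCD in both genotypes, with a median log2 fold change of 2.35 in each. Their summed level was 211 to 561 CPM in WT chow, 279 to 392 CPM in KO chow, 2079 to 2449 CPM in WT HFMCD and 2084 to 2604 CPM in KO HFMCD livers. All 8 genes of a monocyte list were also called higher in both genotypes, with summed levels of 8.46 to 16.7 CPM in WT chow and 66.5 to 79.4 CPM in WT HFMCD livers. Of 7 Kupffer cell genes, 4 were called higher and 1 lower in each genotype, and the list median on the log2 scale was 0.76 in WT and 1.35 in KO. Their summed level was 202 to 581 CPM in WT chow and 740 to 975 CPM in WT HFMCD livers. KO livers held 308 to 418 CPM on chow and 599 to 826 CPM on HFMCD. The gene called lower in WT was Cd163, the haemoglobin scavenger receptor, which fell by 1.18 on the log2 scale (edgeR adjusted p = 8.93e-05). Timd4, a marker of resident Kupffer cells, stood at -0.26 on that scale (adjusted p = 0.490) and was not called.

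Set against the summed pan-macrophage genes of the same library, Trem2 still differed with diet. It amounted to 0.0462% to 0.317% of that sum in WT chow and 0.0760% to 0.328% in KO chow livers, while HFMCD livers of WT mice gave 1.55% to 1.94% and those of KO mice 1.77% to 2.44%. The log2 ratio was 3.73 higher on HFMCD in WT (two-sided exact permutation test, p = 0.00952, adjusted over 4 comparisons 0.019) and 3.54 higher in KO (exact p = 0.00606, adjusted 0.019), and the diets did not overlap in either genotype. Between KO and WT on HFMCD it differed by 0.17 (exact p = 0.257, adjusted 0.343, smallest possible p 0.0286), and on chow by 0.36 (exact p = 0.506, adjusted 0.506). How the other members stood against the same sum is given as a description, as the share of all tested genes that did likewise was not counted. Gpnmb went from a median of 0.145% to 20.5% in WT, Itgax from 0.296% to 1.54%, Lgals3 from 1.91% to 7.95%, and Tyrobp from 2.94% to 4.79%, and for these 4 the WT ranges of the diets did not overlap. Fabp5 and Atp6v0d2 overlapped between the diets in WT, with Fabp5 at 0.899% to 2.41% on chow and 1.19% to 1.60% on HFMCD. Cd63 overlapped too in WT, from 1.10% to 3.41% on chow and 2.83% to 3.52% on HFMCD. In KO, Cd63 did not overlap, at 1.67% to 3.38% on chow and 4.29% to 6.06% on HFMCD. Neither did Atp6v0d2 in KO, at 0.398% to 1.48% and 2.11% to 2.93%. Fabp5 overlapped in KO as well, at 0.763% to 1.70% and 1.58% to 2.10%. Cd9 went the other way, from a median of 11.5% on chow to 3.10% on HFMCD in WT and from 11.6% to 4.11% in KO, without overlap.

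**Figure D2:**
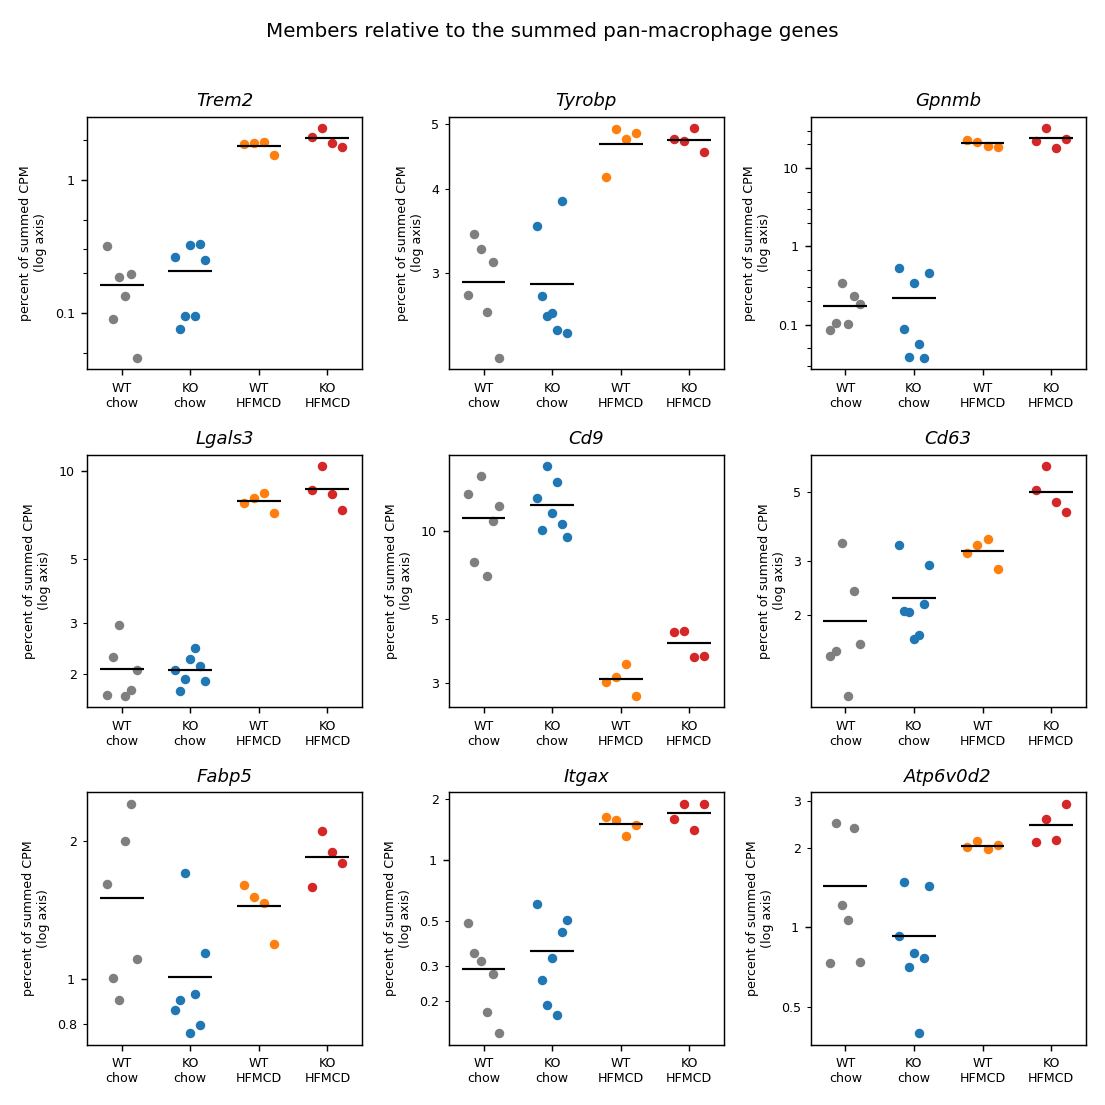
Level of each member as a percentage of the summed CPM of 10 pan-macrophage genes in the same library, on a log axis whose range differs between panels; points are livers and black lines are group means. Trem2, Gpnmb, Lgals3, Itgax and Tyrobp lie higher on HFMCD without overlap within a genotype, Cd9 lies lower, and Fabp5, Cd63 and Atp6v0d2 overlap between the diets in WT. In KO, Cd63 and Atp6v0d2 lie higher on HFMCD without overlap, and Fabp5 overlaps.

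Other genes of the same pathways were counted from lists. Of 19 further genes linked to lipid-associated macrophages, 13 were called higher and 1 lower on HFMCD in WT, with a median log2 fold change of 1.53, and 13 and 1 in KO. Mmp12, a macrophage elastase, averaged 0.391 CPM ± 0.216 (SD, n = 6) in WT chow and 382 CPM ± 20.7 (SD, n = 4) in WT HFMCD livers, and rose by 9.92 on the log2 scale (edgeR, SE 0.23, adjusted p = 2.79e-19). Anxa5, which binds phosphatidylserine, rose by 2.22 and the lysosomal protease Ctsd by 1.63 in WT. Apoe, made mostly by hepatocytes in liver, was the gene called lower, at a log2 fold change of -0.49 in WT and -0.76 in KO. Plin2, the lipid droplet coat protein, had a log2 fold change of -0.02 in WT (adjusted p = 0.939) and was not called.

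Most of the signalling chain below the receptor was higher on HFMCD. Of 16 genes of TREM2 and TYROBP signalling, 15 were called higher in each genotype and 0 lower, with a median log2 fold change of 1.52 in WT and 1.60 in KO. The B-cell linker adaptor Blnk rose by 3.67 (edgeR, SE 0.18, adjusted p = 1.02e-13), the kinase Syk by 1.80, and Adam10, a sheddase that cleaves TREM2 from the surface, by 0.90 in WT. The exception was Malt1, with a log2 fold change of 0.03 in WT. Receptors of the TREM locus and other TYROBP partners were called higher in 7 of 7 tested genes in both genotypes (median 2.75 in WT), while Trem3 and Treml1 of that list were too low to test. Among these, Clec5a rose by 4.45, Cd300lb by 3.77 and Treml4 by 1.95 on the log2 scale in WT.

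Lysosomal regulators and pump subunits had smaller values. Of 7 transcription factors of the MiT/TFE family and of macrophages, 4 were called higher in each genotype: in WT, Spi1, which encodes the myeloid factor PU.1, rose by 2.40, Tfec by 1.39 and Pparg by 1.27 on the log2 scale. None was called lower in WT, and 3 were in KO, where Tfeb fell by 0.44, Nr1h3 by 0.19 and Tfe3 by 0.17; 36% of all tested genes were called lower in KO. Of 18 further V-ATPase subunits and accessory proteins, 9 were called higher and 2 lower in each genotype, with a median log2 fold change of 0.22 in WT against 3.24 for Atp6v0d2. Its ubiquitous counterpart Atp6v0d1 stood at -0.02 on the log2 scale in WT (edgeR, SE 0.07, adjusted p = 0.778). The subunits called higher included Atp6v0e2 at 2.41, Atp6v1b2 at 1.03 and Atp6v1a at 0.85 in WT.

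Relatives of the members by gene family were mixed. Of 17 tested relatives, 10 were called higher and 1 lower in WT, with a median log2 fold change of 0.83. Itgb2, the beta chain that pairs with ITGAX, rose by 3.46, the alpha chain Itgal by 1.84, and the tetraspanin Cd151 by 1.11 on the log2 scale in WT. The hepatocyte fatty acid binding protein Fabp1 fell by 1.18 in WT, in the opposite direction to Fabp5. Galectin-9 and galectin-8 (Lgals9 and Lgals8), at log2 fold changes of 0.19 and 0.11, were not called in WT. The lists share Lgals1, Fabp4, Atp6v0d1 and Siglech with one another.

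Between KO and WT on HFMCD, 0 of the 9 members were called by edgeR, where 0.223% of all tested genes were called higher. An unadjusted edgeR p under 0.05 was found for 2 members and for 1562 of all 15677 tested genes. DESeq2 and limma-voom each called 1 member, where DESeq2 called 193 of all genes and limma-voom called more. All 9 fitted log2 fold changes were positive, with a median of 0.33, and 51.1% of all tested genes were positive with a median of 0.01. The 9 values come from the same 8 livers and are not independent of each other. In 2 of 9 members every KO liver lay above every WT liver, as was so for 4.96% of tested genes.

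Those 2 members were the tetraspanins. Cd63 differed by a log2 fold change of 0.75 (edgeR, SE 0.20, 95% interval 0.36 to 1.14, adjusted p = 0.129), with the lowest KO liver at 1.28 times the highest WT liver. Cd9 differed by 0.52 (SE 0.15, 95% interval 0.22 to 0.82, adjusted p = 0.178), with the lowest KO liver at 1.21 times the highest WT liver. Neither passed the threshold in the edgeR fit to all 21 libraries. Cd63 did pass when only the groups compared were fitted (adjusted p = 0.00585), with limma-voom (0.00714) and with DESeq2 (0.0302), and also without KO chow replicate 1 (0.0402), without KO chow replicates 1 and 7 (0.00447) and without all 4 Dmbt1-rich chow libraries (0.00504). Cd9 passed only when the groups compared were fitted alone (adjusted p = 0.0138). As a percentage of the summed pan-macrophage genes, Cd63 ran from 2.83% to 3.52% in the WT HFMCD livers, and the KO livers lay above that, from 4.29% to 6.06%. Cd9 ran from 2.73% to 3.50% and from 3.69% to 4.54%, also without overlap.

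Lists of markers of other cells differed in direction between the genotypes in the same livers, and only the cholangiocyte list held called genes. Of 9 tested cholangiocyte genes, 5 were called higher in KO than in WT on HFMCD (Epcam, Sox9, Cftr, Cldn7 and Pkhd1), 9 of 9 were positive, and none of the list was at 0. These calls lay close to the threshold, with adjusted p from 0.0348 (Pkhd1) to 0.049 (Cftr). Leaving out any one of the 8 HFMCD livers ended the calls of Epcam, Sox9, Cftr and Cldn7. Leaving out any one except KO replicate 3 ended that of Pkhd1. With chow libraries left out singly too, the first 4 calls were lost in 14, 14, 18 and 13 of 21 fits. Of 9 alternatives with other tools, scalings, filters or libraries, 8, 7, 6 and 7 kept them, and 9 kept that of Pkhd1. The summed level of the cholangiocyte list was 44.5 to 51.6 CPM in the WT livers, and in the KO livers 81.7 to 114 CPM. Stellate cell genes, 0 of 9 of which were called, summed to 412 to 509 CPM in the WT livers, and in the KO livers to 496 to 608 CPM. The part of these cells in the Cd63 and Cd9 values was not tested. None of the 10 pan-macrophage genes, the 8 monocyte genes or the 7 Kupffer cell genes was called by edgeR between the genotypes on HFMCD. An unadjusted edgeR p under 0.05 was found for 0, 0 and 1 of them in that order. Median log2 fold changes of these 3 lists were -0.03, 0.08 and -0.18, with 4, 5 and 0 genes positive.

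The other members overlapped between the genotypes on HFMCD. Fitted log2 fold changes were 0.48 for Fabp5 (95% interval -0.13 to 1.09), 0.38 for Atp6v0d2 (-0.32 to 1.09), 0.33 for Gpnmb (-0.33 to 0.99), 0.30 for Itgax (-0.24 to 0.84) and 0.29 for Trem2 (-0.21 to 0.79). Lgals3 stood at 0.26 (-0.02 to 0.53) and Tyrobp at 0.13 (-0.27 to 0.54). In the companion lists, Spp1 was the single gene called on HFMCD, higher in KO by 1.60 (edgeR, SE 0.30, adjusted p = 0.0348). It encodes osteopontin, which bile duct cells make as well as macrophages. The call was lost when any one of the 8 HFMCD livers or KO chow replicate 3 was left out, with adjusted p up to 0.150, and with no filter on low counts (0.0672). None of the 16 signalling genes, the 7 receptors, the 7 transcription factors, the 18 pump subunits or the 17 relatives was called by edgeR, and an unadjusted p under 0.05 was found for 0, 0, 1, 0 and 1 of them in that order.

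**Figure D3:**
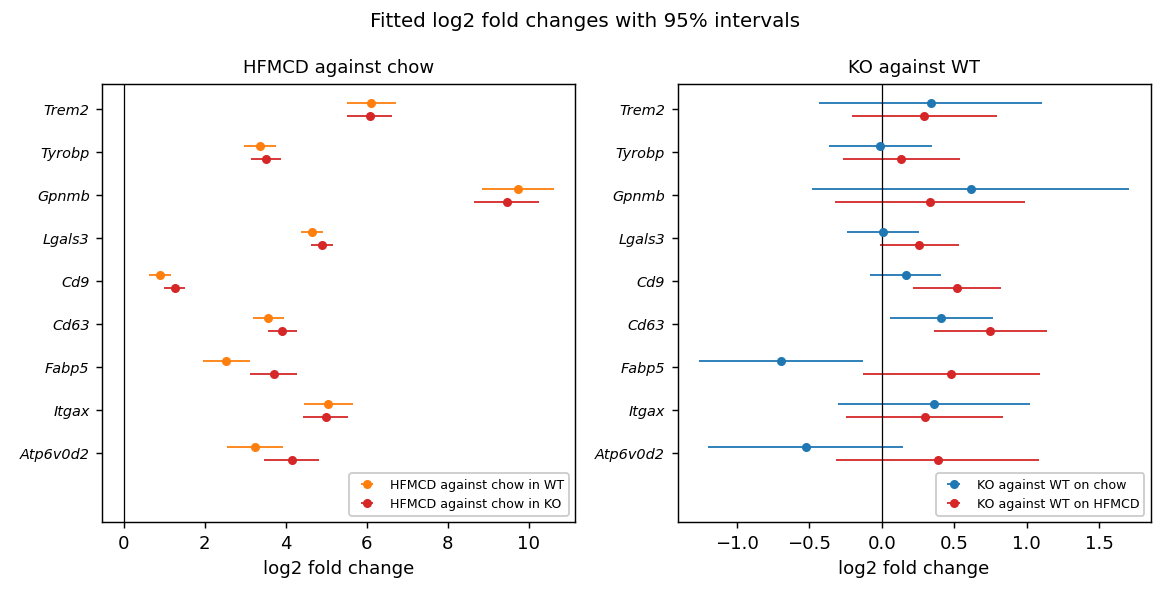
Fitted log2 fold change of each member, with its 95% interval as a horizontal bar, for HFMCD against chow in WT and KO (left) and for KO against WT on chow and on HFMCD (right); the 2 panels have different horizontal scales. On the left all intervals lie above 0, from 0.90 for Cd9 to 9.74 for Gpnmb in WT; on the right the HFMCD intervals of Cd9 and Cd63 lie above 0, and no member passed the adjusted threshold.

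On chow, 0 of 9 members were called between KO and WT, where 2.17% of all tested genes were called in either direction, and the ranges of the genotypes overlapped for each member. DESeq2 and limma-voom also called 0. Of all 15677 tested genes, 2806 had an unadjusted edgeR p under 0.05, and so did 2 of the 9 members. These were Fabp5, with a log2 fold change of -0.70 (SE 0.29, 95% interval -1.26 to -0.13, adjusted p = 0.206), and Cd63, with 0.41 (SE 0.18, 95% interval 0.06 to 0.76, adjusted p = 0.233). The Cd63 value rested on KO replicates 1 and 7, the libraries rich in Dmbt1, which held 12.5 and 11.04 CPM against 5.01 to 8.09 CPM in the other 5 KO livers. Without these libraries the log2 fold change of Cd63 was 0.09 (adjusted p = 0.788). Gpnmb was likewise highest there, at 1.94 and 1.73 CPM, and its log2 fold change of 0.61 (SE 0.56, adjusted p = 0.609) turned to -0.58 without them. Fabp5 kept its direction, at -0.76 without KO replicates 1 and 7 and -0.93 without all 4 Dmbt1-rich libraries (adjusted p = 0.284 and 0.154). The remaining values were -0.52 for Atp6v0d2, 0.36 for Itgax, 0.34 for Trem2, 0.16 for Cd9, 0.01 for Lgals3 and -0.01 for Tyrobp. Of these, Itgax, Lgals3 and Trem2 turned negative without the 4 Dmbt1-rich libraries. The companion genes called on chow were Acp5, a lysosomal phosphatase, higher in KO by 0.30 (edgeR adjusted p = 0.0465), and the relatives Fabp2 and Lgals8, which fell by 1.14 and 0.69 on the log2 scale in KO (adjusted p = 0.00339 and 0.00991). The Acp5 call was lost under 6 of 9 alternatives and without any one of 16 of the 21 libraries. Those of Fabp2 and Lgals8 were lost only with just the chow groups fitted (adjusted p = 0.0643 and 0.0742), among the 9 alternatives and the fits without each single library.

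Whether the genotype effect differed between the diets was tested as the difference of both log2 fold changes. By edgeR, 0% of tested genes were called, with 1581 at an unadjusted p under 0.05, and 0 of 9 members, of which 1 (Fabp5) had an unadjusted p under 0.05. DESeq2 and limma-voom called 0 members. The value was most positive for Fabp5, at 1.18 (SE 0.43, 95% interval 0.34 to 2.01, adjusted p = 0.355), whose KO livers were lower than WT on average on chow and higher on HFMCD. Atp6v0d2 had the same pattern, at 0.91 (SE 0.50, adjusted p = 0.57). Cd9, Cd63, Lgals3 and Tyrobp stood at 0.35, 0.34, 0.25 and 0.14, and Trem2, Itgax and Gpnmb at -0.05, -0.06 and -0.28, none of them called. Without the 4 Dmbt1-rich chow libraries the last 3 turned positive, to 0.32, 0.58 and 0.73, and Cd63 stood at 0.57 (edgeR adjusted p = 0.203); without KO chow replicates 1 and 7 alone Cd63 stood at 0.66 (adjusted p = 0.123).

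How the members varied together within groups was described by Pearson's r of each library's deviation from its group mean in log2 CPM. Libraries share a depth and a scaling, and the low chow counts of Trem2, Gpnmb and Itgax add counting noise. Over the 8 HFMCD livers the 36 pairs had a median r of 0.62, from 0.18 to 0.99, and 22 exceeded 0.5. Over the 13 chow livers the median was 0.29, from -0.50 to 0.81, and 8 exceeded 0.5. On HFMCD, Trem2 went most closely with Cd63 (r = 0.99), Lgals3 (0.95) and Cd9 (0.91), and Itgax with Atp6v0d2 (0.89), while Tyrobp went least closely with Gpnmb (0.18). On chow the highest r was that of Trem2 with Itgax (0.81) and the lowest that of Cd9 with Atp6v0d2 (-0.50). WT replicate 2 was the highest of its group for 9 of 9 members and KO replicate 2 for 6 of 9. The median r of the 36 pairs was 0.54 without WT replicate 2, 0.53 without KO replicate 2 and 0.30 over the 6 livers without both, where 26 pairs were positive and 14 exceeded 0.5. WT replicate 2 also had the highest pan-macrophage sum of its group, at 2449 CPM, whereas the sum in KO replicate 2, 2412 CPM, was below those of KO replicates 3 and 4 (2534 and 2604 CPM).

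**Figure D4:**
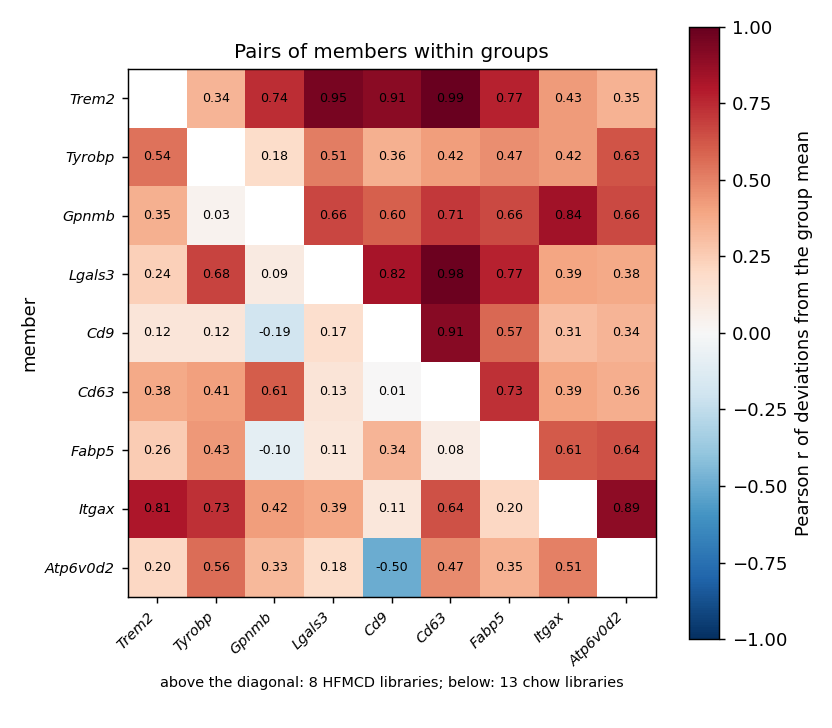
Pearson's r between members of the deviations of log2 CPM from the group mean, with the 8 HFMCD livers above the diagonal and the 13 chow livers below it; colour runs from blue (-1) to red (1). All 36 pairs are positive over the 8 HFMCD livers, with Trem2, Lgals3, Cd9 and Cd63 forming the reddest block, and 33 of 36 are positive on chow.

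The genes most like 2 of the members within groups were sought among all tested genes by the same r over 21 libraries. For Trem2 these were Cdkl1 (0.79), Sms (0.78), Bmp4 (0.78), Dzip1l (0.77) and Rbms3 (0.76), whose r over the 8 HFMCD livers alone was between -0.03 and 0.19. For Gpnmb they were Ptn (0.92), Adamts2 (0.91), Igfbp5 (0.90), Timp2 (0.87) and Crispld2 (0.87), with 0.56 to 0.85 over the HFMCD livers. The mean levels of these 10 differed less between the diets than those of their partners: Sms stood at 3.30 CPM in WT chow and 3.03 CPM in WT HFMCD livers on average, and Timp2 at 16.7 and 63.9 CPM. On chow, Gpnmb was highest in KO replicates 1 and 7, 2 of the Dmbt1-rich libraries. Their stellate cell sums, 196 and 270 CPM, were also the highest on chow. These r values were not computed without them.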

How the data were processed

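Whole-liver RNA-seq read counts of 21 mice were analysed. The authors deposited 1 file of raw read counts per gene symbol for each library, with no normalization recorded. CASAVA 2.17, STAR 2.6.1d, featureCounts 1.6.1 and GRCm38 are named, per the submitters' processing notes, without their roles. The annotation release, strand setting and read filters were not given in the sources used here. Gene positions and exon lengths are from GENCODE M21, which held all 55418 symbols.

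Genes were filtered with filterByExpr on the 4 groups and scaled by TMM in edgeR 4.0.16 (R 4.3.3). A robust quasi-likelihood model with 4 group means was fitted to all 21 libraries and all 15677 genes, with Benjamini-Hochberg adjustment over them and a threshold of 0.05. The fit was checked on simulated data. SE is the log2 fold change over the square root of F, and the 95% interval is 1.96 SE to either side. CPM uses the TMM-scaled total of tested genes, and log2 CPM a prior count of 2. Alternatives were DESeq2 1.42.0, limma-voom with quality weights (limma 3.58.1), other scalings, other filters and fits with fewer libraries. The fit called limma-voom here thus gives each library its own weight, and libraries that stand apart can count less. Ratios to the pan-macrophage sum were compared by two-sided exact permutation tests. Reads carry no molecular identifiers, and fewer than about 50 reads lay behind Trem2 and Gpnmb in each chow library.

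The members and gene lists were chosen with earlier results of these data known. Named genes are the 9 members, Mboat7 and up to 3 called genes with the smallest p per list. The list genes were taken in HFMCD against chow in WT and in KO against WT on HFMCD. The 5 genes outside the members that were most like Trem2, and the 5 most like Gpnmb, are also named. Other list genes (Apoe, Plin2, Malt1, Atp6v0d1, Tfeb, Tfe3, Nr1h3, Fabp1, Fabp2, Lgals8, Lgals9, Acp5, Cd163, Timd4, the called duct genes), Dmbt1 and Ttn were chosen after their values were seen. No sample numbers pair libraries across groups.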

Additional observations from a re-analysis of the deposited data

Results flagged for a closer look

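Within-group outliers were sought for each member in each group of 4 to 10 livers with Dixon's criterion. In 36 groups of values 1 was found, where chance gives about 1 in 20. Lgals3 in KO chow replicate 3 stood at 5.35 CPM, below the next lowest KO chow liver at 6.75 CPM, while the highest stood at 7.68 CPM. The value lies inside the WT chow range of 4.56 to 9.44 CPM.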

How the results depend on the processing

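The 9 members were called higher on HFMCD in both genotypes under all 9 alternatives and without each single library. Between KO and WT on HFMCD the count of members called higher, 0, became 1 with DESeq2, with limma-voom, without KO chow replicates 1 and 7, and without the 4 Dmbt1-rich libraries, and 2 with only the groups compared. It ranged from 0 to 1 when single libraries were left out, and the 1 came without KO chow replicate 1, for Cd63. On chow the log2 fold change of Gpnmb turned to -0.18 with limma-voom, -0.58 without KO replicates 1 and 7 and -0.40 without the 4 Dmbt1-rich libraries. In the same 2 settings without libraries Itgax turned to -0.0868 and -0.28, and Lgals3 to -0.0245 and -0.18, with -0.00738 under no filter. Trem2 turned to -0.0269 without the 4. The difference of the KO effect between diets turned, with limma-voom, without the 2 and without the 4 libraries, to 0.0676, 0.18 and 0.32 for Trem2, to 0.36, 0.91 and 0.73 for Gpnmb, and to 0.0513, 0.38 and 0.58 for Itgax. None of these values was called. Leaving out single libraries gave ranges across 0 on chow of -0.0760 to 0.14 for Lgals3 and -0.10 to 0.15 for Tyrobp, and for the difference of -0.46 to 0.13 for Trem2, -0.0281 to 0.23 for Tyrobp, -0.51 to 0.15 for Gpnmb and -0.38 to 0.14 for Itgax. The cause was not tested. Correlations of the members without replicate 2 of an HFMCD group were added after the data were seen. The diet difference of the Trem2 ratio was 3.34 to 3.97 in all settings and stayed under 0.05. Of all genes, 50 were called between KO and WT on HFMCD, 296 with only the groups compared, 193 with DESeq2, more than 296 with limma-voom, 28 with no filter and 1 to 75 without single libraries. On chow 340 were called, 2 with only the groups compared, 713 with DESeq2 and 49 to 611 without single libraries. For the difference the 0 became 99 with DESeq2 and 84 without the 2 libraries. No paired analysis was possible because animal numbers are not shared between groups.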

Other observations

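Other immune cell lists, outside the macrophage lineage, also moved with diet. All 6 tested neutrophil genes were called higher on HFMCD in each genotype, with a median log2 fold change of 1.77 in WT and 2.39 in KO, and their summed level went from 3.69 to 16.4 CPM in WT chow to 23.3 to 28.8 CPM in WT HFMCD livers. Of 10 T, NK and B cell genes, 8 were called higher in WT, and 5 higher and 1 lower in KO. Of 8 genes of dendritic cells, a cell type that also expresses Itgax, 5 were called higher and 2 lower in each genotype. The list median log2 fold change was 1.99 in WT and 1.80 in KO. The summed level of this list still overlapped between the diets in WT, at 16.3 to 22.9 CPM on chow and 18.4 to 22.9 CPM on HFMCD. Of 8 hepatocyte genes, 4 were called lower in WT and 5 in KO, and none higher, where 33.6% and 36% of all tested genes were called lower. Of 8 endothelial genes, 5 were called higher in WT and 3 in KO, where 29% and 33.7% of all tested genes were called higher, so the KO count is near the background.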
